A study of Homo sapiens with 14 samples.

Results

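CTCF was depleted in IMR90 cells made senescent with the small molecule inflachromene (ICM), and the transcripts of these cells were compared with those of ICM-treated cells without the depletion. The comparison uses 4 of the 14 RNA-seq libraries of the series, chosen by their titles: siCTCF 1 and siCTCF 2, and their controls ICM 3 and ICM 4. siCTCF 1 was paired with ICM 3 (pair 1) and siCTCF 2 with ICM 4 (pair 2), in the order of the numbers within each group. The labels do not state this pairing, and nothing in them says whether the libraries came from separate cultures, so p-values measure only the spread between these samples.

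IMR90 is an established line of human lung fibroblasts, and the protocols in the labels describe cultures of a pair of its isolates without tying an isolate to a library. All 4 libraries share the ICM treatment, 10 µM for up to 6 days. The siCTCF libraries carry the genotype label CTCF knockdown and the ICM libraries the label WT. No control siRNA is named for ICM 3 and ICM 4, so the siRNA procedure and the loss of CTCF cannot be told apart. The titles give IMR90 for all 4 libraries, while the cell line field holds a different, rising number in each; the titles were followed. Untreated cells with HMGB2 knocked down (siHMGB2, 2 libraries) and untreated wild-type cells (WT, 2 libraries) served as a second knockdown for comparison.

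CTCF is a zinc-finger protein that binds a long DNA motif and halts the loop extrusion carried out by the cohesin ring, so that loop anchors and domain borders form where it is bound. Cohesin consists of SMC1A, SMC3, RAD21 and a STAG subunit, is loaded by NIPBL with MAU2 and is released by WAPL. Inflachromene binds the chromatin proteins HMGB1 and HMGB2. In senescent fibroblasts HMGB2 is lost from chromatin and CTCF gathers into clusters in the nucleus.

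The 4 libraries held 22336161 to 26779027 gene counts, and reads given to no gene made up 12.75% to 14.3% of their totals. All 12 fibroblast markers were detected in each, from S100A4 at 1.85 to 2.76 CPM to COL1A1 at 725 to 1831 CPM, with a summed level of 4927 and 2457 CPM (counts for every 1000000 gene counts of a library) in ICM 3 and ICM 4 and of 4991 and 2087 CPM in siCTCF 1 and siCTCF 2. Of 9 lung epithelial markers 7 had no count in any of the 4 libraries, and the sum of the 9 stayed at or below 0.179 CPM. The defining endothelial genes CDH5 and CLDN5, and the leukocyte genes CD3E and LYZ, had no count in any of the 4, which allows at most 3 counts per library. Of the other endothelial genes TEK was above 1 CPM (2.5 to 16.5 CPM, high in pair 1), and of the leukocyte genes CD14 and CD68, the latter also a general lysosomal protein (88.4 to 103.8 CPM). Of 5 smooth muscle markers, MYH11 and DES had at most 3 counts in a library, LMOD1 and CNN1 were between 0.859 and 3.18 CPM, and SMTN was between 147.5 and 221 CPM.

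The libraries of a pair resembled each other more than the libraries of a group. Over the 8771 genes whose mean reached 10 CPM, the log2 ratio of siCTCF 1 to ICM 3 had a standard deviation across genes of 0.207 and that of siCTCF 2 to ICM 4 of 0.14. The same ratio of ICM 4 to ICM 3 had a standard deviation of 0.493, with 392 genes at least 2-fold apart, and that of siCTCF 2 to siCTCF 1 of 0.433, with 271 such genes. The spread within a group was therefore wider than the difference within either pair. The pair was kept as a block in the main test, and each pair is also described alone.

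CTCF itself was reduced in both siCTCF libraries, strongly in one and slightly in the other. Its level was 94.87 CPM in library ICM 3, 91.92 CPM in ICM 4, 71.5 CPM in siCTCF 1 and 22.97 CPM in siCTCF 2. The controls lay close together and the siCTCF libraries far apart, with no overlap between the groups. Of the 12695 genes whose mean reached 1 CPM, 14.7% had no such overlap. siCTCF 1 kept 75.4% of the CTCF level of its paired control (95% counting interval 70.6% to 80.4%) and siCTCF 2 kept 25% (22.8% to 27.3%). These exact intervals cover counting error only. In RNA from whole cultures, a loss of CTCF in some cells and a smaller loss in every cell cannot be told apart. The gene lies at chr16:67562526-67639177 on hg38 (RefSeq, GRCh38.p14) and its counts were 2268, 2332, 1597 and 615 in ICM 3, ICM 4, siCTCF 1 and siCTCF 2.

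Across the series CTCF was not constant without its siRNA. Other ICM-treated libraries ranged from 30.6 CPM in ICM 1 to 82.5 CPM in siSRRM2 1. The lowest, ICM 1 and siBANF1 1 (37.6 CPM), had the largest shares of reads given to no gene in the series (35.24% and 41.78%). The rest of these libraries lay at 76.8 to 82.5 CPM. The untreated WT libraries had 49.2 and 50.7 CPM. siCTCF 1 therefore held more CTCF transcript than WT 1 or WT 2 on this scale, and siCTCF 2 held less than any other of the 14 libraries.

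**Figure D1:**
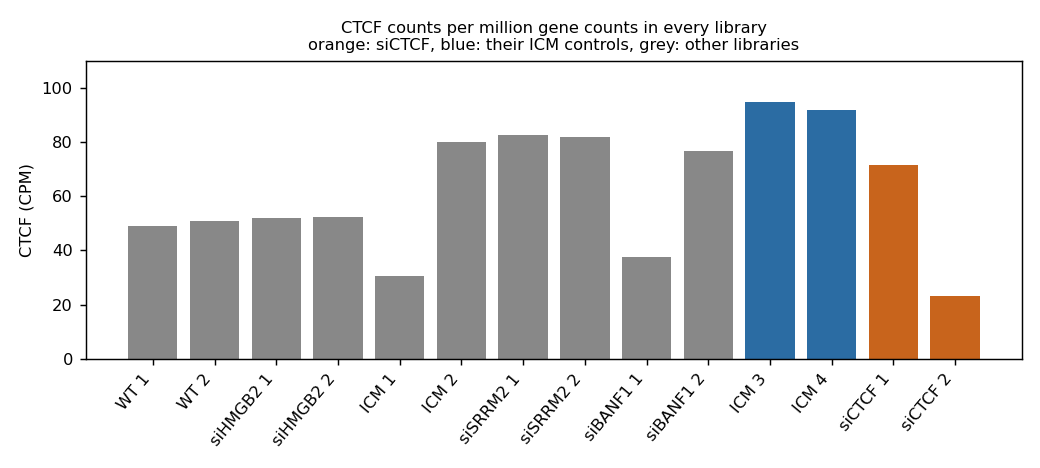
CTCF level (CPM, y axis) in each of the 14 libraries, 1 bar per library. The siCTCF libraries (orange) stand at 71.5 and 22.97 CPM beside their ICM controls (blue) at 94.87 and 91.92 CPM; the other libraries are grey.

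Apart from CTCF, few transcripts passed the test. Of the 12695 genes whose mean reached 1 CPM, the paired quasi-likelihood test of edgeR called 3 higher and 1 lower at a Benjamini-Hochberg adjusted p under 0.05, which is 0.0236% and 0.00788% of the genes tested. The gene that fell was CTCF, with a log2 fold change of -1.17 (SE 0.12, 95% interval -1.41 to -0.93, adjusted p 1.64e-17). The genes that rose were HSP90AA1, EIF3E and COPS2. At an unadjusted p under 0.05 there were 506 genes higher (3.99%) and 139 lower (1.09%).

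HSP90AA1, the stress-inducible form of the cytosolic chaperone HSP90 (chr14:102080742-102139749), had 2372 CPM in ICM 3, 3011 CPM in ICM 4, 3780 CPM in siCTCF 1 and 3236 CPM in siCTCF 2. ICM 3 was the low library, and both siCTCF libraries lay above both controls. The log2 fold change was 0.40 (SE 0.08, adjusted p 0.00272), made up of a log2 ratio of 0.69 in pair 1 and 0.10 in pair 2. HSP90AB1, its constitutive paralog, had a log2 fold change of 0.05 (SE 0.08) and was not called. HSP90AA1 has near-identical pseudogene copies, so its count is uncertain to the extent that reads were shared with them.

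EIF3E encodes a subunit of the translation initiation factor eIF3 (chr8:108201216-108248717). Its levels were 202.2 and 307.5 CPM in ICM 3 and ICM 4 and 367.7 and 322 CPM in siCTCF 1 and siCTCF 2. The log2 fold change was 0.47 (SE 0.10, adjusted p 0.00411), with log2 ratios of 0.88 in pair 1 and 0.07 in pair 2. As for HSP90AA1, the siCTCF libraries did not overlap the controls, which held for 14.7% of all tested genes, and ICM 3 was the lowest.

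COPS2 encodes a subunit of the COP9 signalosome, which removes NEDD8 from cullin ubiquitin ligases (chr15:49122727-49155599). It was at 140.9, 236.4, 247.3 and 247.2 CPM in ICM 3, ICM 4, siCTCF 1 and siCTCF 2, a log2 fold change of 0.45 (SE 0.10, adjusted p 0.031). Its log2 ratio was 0.83 in pair 1 and 0.06 in pair 2. For all 3 genes that rose, the difference was larger in the pair in which CTCF was reduced less.

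**Figure D2:**
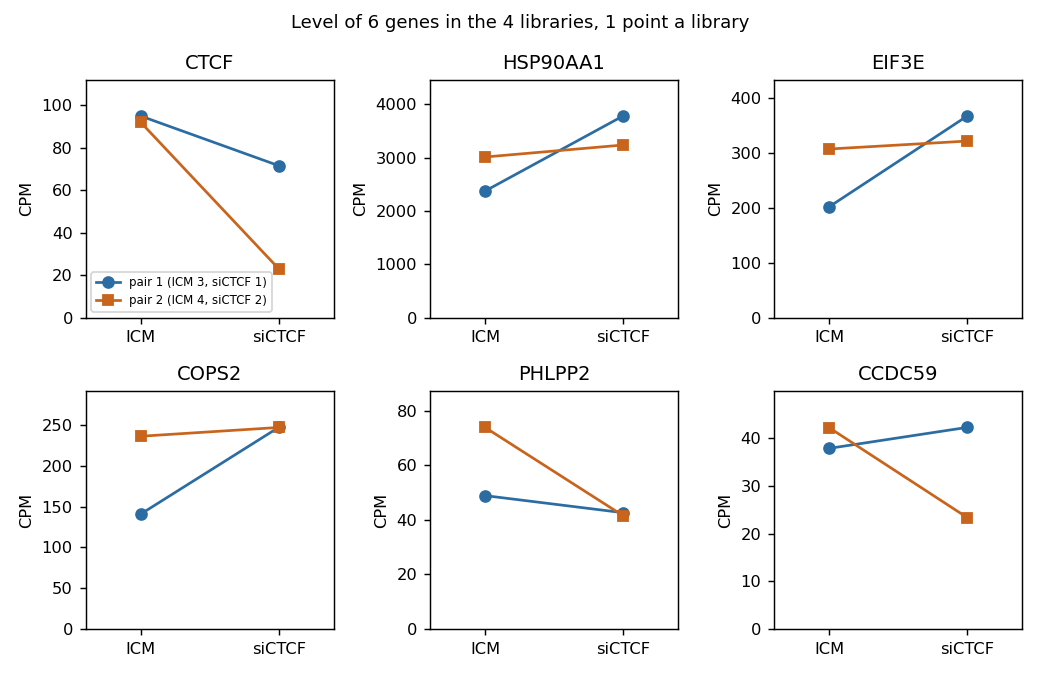
Level (CPM, y axis, from 0) of 6 genes in the 4 libraries; a line joins the libraries of a pair, circles for pair 1 and squares for pair 2. CTCF falls in both pairs and most in pair 2, HSP90AA1, EIF3E and COPS2 rise mainly in pair 1, and PHLPP2 and CCDC59 are lowest in siCTCF 2 (41.6 and 23.34 CPM).

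These calls depended on how the spread was estimated. The paired design leaves 1 residual degree of freedom per gene, and the spread was shared across genes with no gene-specific part, so the gap between the CTCF ratios of the pairs (-0.38 and -1.98) did not enter its standard error. In a paired fit with DESeq2 the log2 fold change of CTCF was -1.19 with a standard error of 0.74 (unadjusted p 0.106), and no gene was called (134 genes at an unadjusted p under 0.05). Without the pair as a block, edgeR called no gene (1 gene at an unadjusted p under 0.05), with CTCF at -0.96 (SE 0.55, unadjusted p 0.145). With all 14 libraries and the block, CTCF was at -1.20 (SE 0.46, unadjusted p 0.0275, adjusted p 1) and no gene was called (21 at an unadjusted p under 0.05).

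Without the block, leaving out any of the 4 libraries also left no gene called; the lone library of an arm was assumed to vary like the other arm. CTCF was at -2.05 without siCTCF 1 (unadjusted p 0.000205, the lowest of all genes), -0.34 without siCTCF 2, -0.90 without ICM 3 and -1.01 without ICM 4. HSP90AA1 was at 0.24, 0.54, 0.26 and 0.55 in the same order, EIF3E at 0.32, 0.58, 0.21 and 0.76, and COPS2 at 0.37, 0.45, 0.10 and 0.79. The sign held for all 4 genes, and the size for the 3 that rose was smallest without ICM 3 or without siCTCF 1.

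The intervals of the paired fit hold only under the shared spread described above, so they do not limit how large an undetected change could be. Of the 12695 genes, 94.1% had a 95% interval within 2-fold in both directions and 75.7% within 1.5-fold. Among the 8771 genes at 10 CPM or more, 97.9% had an interval within 1.5-fold, and all but 1, CTCF, within 2-fold. These intervals are too narrow for a gene whose pairs differ, as those of CTCF did. The interval of CTCF, -1.41 to -0.93, held neither of its pair ratios (-0.38 and -1.98).

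In the pair with the deep CTCF reduction, no other gene at 10 CPM or more passed 2-fold. Between siCTCF 2 and ICM 4, 1 of 8771 genes was at least 2-fold lower (0.0114%), CTCF, and none was at least 2-fold higher. At 1.5-fold, 8 genes were lower (0.0912%) and none higher; a single library per arm gives no test. The 8 were CTCF, CCDC59, PHLPP2, THSD4, BMP2, FAT4, TNC and KCTD12, of which the last 3 fall outside the rule for named genes and were named after their values were seen. In pair 1, 4 of the 8 had the same sign and none was 1.5-fold lower.

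PHLPP2, a phosphatase that removes an activating phosphate from AKT, had 73.99 CPM in ICM 4 against 41.6 CPM in siCTCF 2, and 48.94 CPM in ICM 3 against 42.67 CPM in siCTCF 1. Both siCTCF libraries were below both controls, and 14.7% of all tested genes had groups without overlap in either direction. Its log2 ratios were -0.82 in pair 2 and -0.17 in pair 1, and its log2 fold change of -0.51 (SE 0.12, adjusted p 0.0882) missed the threshold.

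CCDC59, which encodes a coiled-coil protein, stood at 42.18 CPM in ICM 4 against 23.34 CPM in siCTCF 2, and at 37.86 CPM in ICM 3 against 42.26 CPM in siCTCF 1. siCTCF 2 alone was low, and the log2 ratios of -0.84 and 0.18 had opposite signs. METTL25, its neighbour on chromosome 12, was at 3.98 and 5.23 CPM in ICM 4 and siCTCF 2 and 6.15 and 6.09 CPM in ICM 3 and siCTCF 1.

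The growth factor gene BMP2 went from 27.24 to 17.21 CPM in pair 2 (log2 ratio -0.65) and from 101.9 to 98.18 CPM in pair 1 (-0.03). THSD4, an extracellular microfibril protein, had ratios of -0.74 and 0.08 in pairs 2 and 1. TNC, the matrix glycoprotein tenascin C, had -0.61 and -0.09. Among genes at 10 CPM or more the highest ratios in pair 2 were smaller: PCTP, a phosphatidylcholine transfer protein, went from 20.46 to 29.8 CPM in that pair (0.53) and was at 20.71 and 21 CPM in pair 1 (0.04).

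Pair 1, with the slight CTCF reduction, held more genes past 1.5-fold. Between siCTCF 1 and ICM 3, among the 8771 genes at 10 CPM or more, 104 were at least 1.5-fold higher (1.19%) and 3 lower (0.0342%), none of them 2-fold. The highest log2 ratios among these genes were those of RESF1 (0.92), EIF3E, COPS2, LRRC40 (0.83) and PSMC6 (0.81), a subunit of the proteasome's ATPase ring. RESF1 went from 10.88 to 20.77 CPM in pair 1 and from 41.55 to 35.92 CPM in pair 2, so the gap between the controls was wider than either difference. Of the 104 genes, 69 had the same sign in pair 2, where their median log2 ratio was 0.06 and none reached 1.5-fold.

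The 3 genes at 10 CPM or more that were 1.5-fold lower in pair 1 were also lower in pair 2, though by less. NOG, a secreted BMP antagonist, was at 24.26 and 14.42 CPM in ICM 3 and siCTCF 1 and at 8.67 and 7.02 CPM in ICM 4 and siCTCF 2, log2 ratios of -0.71 and -0.29. ABHD15 had ratios of -0.64 and -0.28, with both siCTCF libraries (7.83 and 9.07 CPM) below both controls (12.67 and 11.12 CPM). Such a lack of overlap, in either direction, held for 14.7% of all tested genes. SERPINB2, an inhibitor of plasminogen activators, had -0.83 and -0.10. None was called; the lowest adjusted p of the 3 was 0.38.

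Across the 8771 genes the log2 ratios of the pairs had a Pearson correlation of 0.002 (-0.001 without CTCF). Genes share a library and are not replicates, so this describes these 4 libraries only. At a looser 1.2-fold in both pairs, 19 genes were higher (0.217%) and 21 lower (0.239%), CTCF among the latter, and no other gene of either kind was called. USP16, a histone H2A deubiquitinase, was at 50.66 and 102.4 CPM in the controls and 73.83 and 128.1 CPM in siCTCF 1 and siCTCF 2, higher in each pair while the groups overlapped (log2 fold change 0.44, SE 0.11, adjusted p 0.153). SMOC1, a matricellular protein, was at 27.73 and 16.59 CPM in the controls and 18.71 and 12.4 CPM in siCTCF 1 and siCTCF 2. GMNN, the replication licensing inhibitor geminin, was at 8.45 and 11.15 CPM in the controls and 13.16 and 14.75 CPM in the siCTCF libraries. USP16, SMOC1 and GMNN were named after their values were seen.

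**Figure D3:**
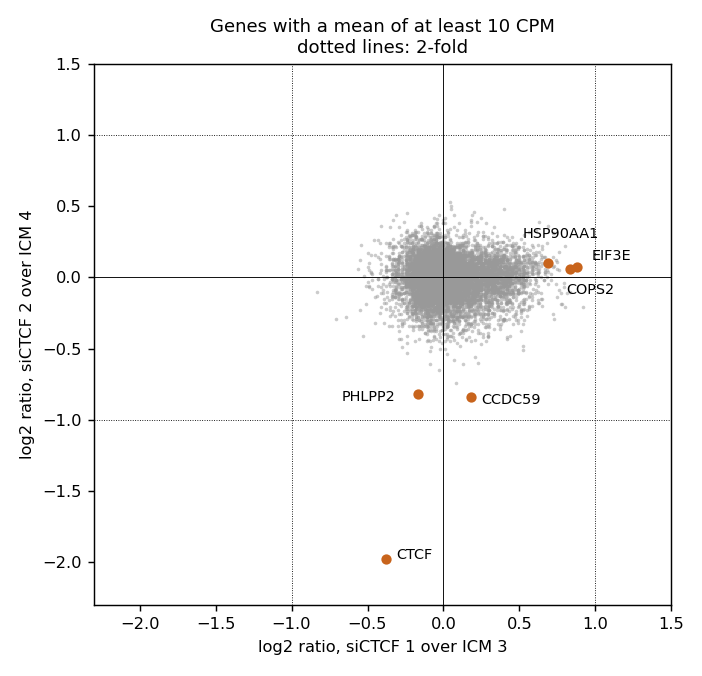
Log2 ratio of siCTCF to its paired ICM control in pair 1 (x axis) and pair 2 (y axis) for the 8771 genes whose mean reached 10 CPM, 1 point per gene; dotted lines mark 2-fold. CTCF alone lies past 2-fold, in pair 2 only (-1.98), and the cloud shows no slope (correlation 0.002).

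The differences within a pair moved with the composition of the transcript. Over 8532 of the 8771 genes with a transcript in GENCODE v29 (97.3%), the log2 ratio of pair 1 had a correlation across genes of -0.61 with transcript GC content. Its median was 0.27 among genes in the lowest quintile (below 40.5% GC) and -0.09 in the highest (above 57.3%). In pair 2 the correlation with GC was -0.05, while that with log transcript length was -0.43, against 0.21 in pair 1. The ratio of ICM 4 to ICM 3, which involves no knockdown, had -0.44 with GC and 0.28 with log length. Like the ratio of pair 1 it is taken over ICM 3, and it shares ICM 4 with pair 2. Its correlations are therefore not independent of those of the pairs, and a likeness to pair 1 is partly built in.

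The genes that rose in the fit included 2 with low-GC transcripts, COPS2 (33.7% GC) and EIF3E (37.9%), where the median gene had 47.5%. HSP90AA1 (45.2%) and CTCF (45.8%) lay near that median. A paired fit with GC and length trends as offsets, added after the data were seen, called 9 genes, 4 higher (0.0315%) and 5 lower (0.0394%), and shared CTCF and HSP90AA1 with the first fit. EIF3E (log2 fold change 0.30, adjusted p 0.0565) and COPS2 (0.28, adjusted p 0.178) were no longer called. The part of transcript composition in their change was not tested beyond this fit.

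The offset fit called CTCF lower (-1.14, SE 0.09), with PHLPP2 (-0.49, SE 0.09, adjusted p 0.000387), CCDC59 (-0.55, SE 0.10, adjusted p 0.000166), C5orf15 (-0.50, SE 0.09, adjusted p 7.01e-05) and MMP24OS (-0.35, adjusted p 0.0181). This paired fit, too, leaves 1 residual degree of freedom per gene. CCDC59 had ratios of 0.18 in pair 1 and -0.84 in pair 2, so its call rests on siCTCF 2. MMP24OS was at -0.14 (adjusted p 0.999) in the first fit, with ratios of -0.31 in pair 1 and 0.03 in pair 2. Among the higher genes were HSP90AA1 (0.38), CAPZA2 (0.35, adjusted p 0.0181), an actin capping protein, NACA (0.33, adjusted p 0.0131), a ribosome-associated chaperone, and STAG1 (0.34, adjusted p 0.0413). CAPZA2, NACA, C5orf15, MMP24OS and STAG1 were named after their values were seen. C5orf15 was at 60.86 and 75.25 CPM in the controls and 49.38 and 55.79 CPM in siCTCF 1 and siCTCF 2, lower in both pairs. MMP24OS is named for lying opposite MMP24, and with the strand setting not given in the sources used here, its reads cannot be told apart from those of its partner.

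**Figure D4:**
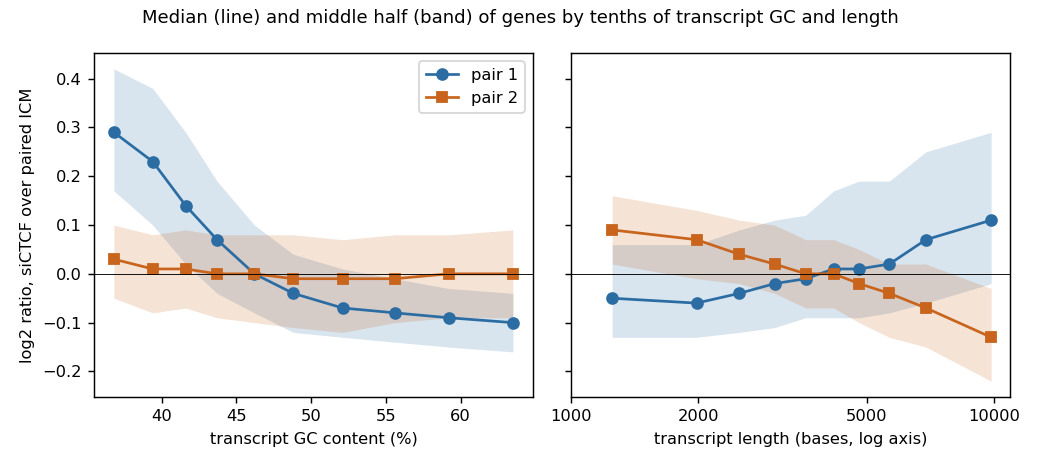
Log2 ratio of siCTCF to its paired control (y axis) by deciles of transcript GC content (left, %) and transcript length (right, bases, log axis); lines join medians and bands span the 25th to the 75th percentile of genes. Pair 1 falls from a median of 0.29 in the lowest decile of GC content to -0.10 in the highest, pair 2 stays between -0.01 and 0.03 there, and the pairs slope in opposite directions with length.

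The promoters of CTCF and CCDC59 are shown because they bear a CTCF core motif, searched on both strands as CA, any 2 bases, AG, any 2 bases, GGC, and belong to the gene that was called lower and to the gene that was next lowest in pair 2 among genes at 10 CPM or more. Each runs 300 bases in the direction of its gene, from RefSeq on GRCh38.p14, with matches on either strand in capitals. They lie at chr16:67562276-67562575 on the plus strand and chr12:82358756-82359055 on the minus strand.
CTCF: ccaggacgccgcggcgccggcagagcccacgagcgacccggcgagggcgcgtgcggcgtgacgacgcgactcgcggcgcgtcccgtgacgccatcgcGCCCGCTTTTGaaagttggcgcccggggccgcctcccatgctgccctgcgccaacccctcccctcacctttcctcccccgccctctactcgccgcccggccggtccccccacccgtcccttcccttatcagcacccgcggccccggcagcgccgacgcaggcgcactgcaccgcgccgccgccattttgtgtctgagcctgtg
CCDC59: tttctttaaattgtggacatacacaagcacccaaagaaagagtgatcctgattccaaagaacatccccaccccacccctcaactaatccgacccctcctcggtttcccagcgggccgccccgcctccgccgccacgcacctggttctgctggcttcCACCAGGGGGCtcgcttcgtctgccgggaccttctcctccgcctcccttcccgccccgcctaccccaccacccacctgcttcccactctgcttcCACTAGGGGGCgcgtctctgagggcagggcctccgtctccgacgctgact

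The CTCF promoter holds 1 match, starting at base 98, and that of CCDC59 holds 2, starting at bases 157 and 251. A match is a string of letters and no evidence of binding. CTCF was also the siRNA target, so its fall cannot be tied to its promoter. The promoters of APP and IGFBP5, not shown, held 1 match each. Their log2 fold changes were 0.00 (SE 0.09) and -0.08 (SE 0.08), and neither was called. A match was found in 6.62% of the 27305 promoters in the table and in 7.46% of those of the 9641 tested genes with an entry. Of the 4 called genes 3 had an entry, and CTCF was the one with a match. Among genes at 10 CPM or more, the 545 with a match and the 6622 without one had the same median log2 ratio in pair 2, 0.00, with the same standard deviation, 0.14.

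Of the CTCF and cohesin list, 19 of 21 genes were tested, and CTCF, the siRNA target, was the only one called. Over all tested genes 0.0236% were called higher and 0.00788% lower, so no call for the other members says little. The median log2 fold change of the 19 was 0.14, where that of all 12695 genes was 0.00. By pair the median was 0.35 in pair 1 and -0.03 in pair 2, and 10 of the 19 genes had the same sign in both. The 19 transcripts had a median GC content of 41.3%, below that of the median gene, and with GC and length offsets the median of the list was 0.10.

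Of the ring subunits, SMC3 had a log2 fold change of 0.24 (SE 0.12), RAD21 of 0.20 (SE 0.11) and SMC1A of 0.05 (SE 0.12), with ratios of 0.44, 0.44 and 0.16 in pair 1 and 0.05, -0.04 and -0.06 in pair 2. STAG1 was at 66.01 and 102.7 CPM in ICM 3 and ICM 4 and at 102.1 and 118.5 CPM in siCTCF 1 and siCTCF 2. It had the highest value of the list (0.42, SE 0.11, adjusted p 0.181 in the main fit). The loader NIPBL went from 85.54 to 120.8 CPM in pair 1 and from 198.2 to 168.9 CPM in pair 2, opposite directions that gave 0.14 (SE 0.11). The release factor WAPL was at 0.09 (SE 0.10).

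Genes known from studies of CTCF insulation gave no call. With 0.0236% of all tested genes called higher and 0.00788% lower, no call in a list this short says little. Of 20 textbook CTCF loci 12 were tested, with a median log2 fold change of -0.05 and a range from -0.21 (MEG3, SE 0.13) to 0.15 (RB1, SE 0.11). APP, whose promoter holds a well-studied CTCF site, was at 484.2 and 483.4 CPM in the controls and 506.1 and 454.6 CPM in siCTCF 1 and siCTCF 2. The interval of its log2 fold change ran from -0.18 to 0.18. MYC was at -0.04 (SE 0.12) and CDKN2A at -0.01 (SE 0.15).

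The clustered protocadherins, whose promoter choice depends on CTCF in neurons, could not be compared. None of 53 reached a mean of 1 CPM, and the whole cluster had 3 counts in the 4 libraries together. Reads ambiguous between genes were counted for none (1.81% to 1.91% of library totals), so these counts do not show that the genes were silent. Of 39 HOX genes, whose clusters are divided by CTCF sites, 14 were tested and none called, with a median of -0.12. That median was -0.03 when restricted to genes at 10 CPM or more. HOXB6 and HOXB2, with the highest CPM of the list, were at 0.01 and -0.02 (SE 0.12 each).

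No gene beside CTCF on chromosome 16 was called. The nearest upstream tested gene, RIPOR1, was at 127.1 and 117.5 CPM in the controls and 113.9 and 96.64 CPM in siCTCF 1 and siCTCF 2 (log2 fold change -0.21, SE 0.11, unadjusted p 0.0555). ACD, the shelterin subunit next downstream, was at -0.06 (SE 0.15). The 4 called genes lie on different chromosomes, so no neighbours could both be called. Among 12421 pairs of adjacent tested genes, both had an unadjusted p under 0.05 in the same direction in 45 and in opposite directions in 8. At any p, 54.3% of the adjacent pairs had the same direction. Over all genes at an unadjusted p under 0.05, 506 were higher and 139 lower. A cause of the shared direction was not tested.

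Genes tied to senescence were compared next; with 0.0236% of all tested genes called higher and 0.00788% lower, no call in a list of this size says little. CDKN1A, the p21 inhibitor of cyclin-dependent kinases, was at 10800 and 13080 CPM in ICM 3 and ICM 4 and 9606 and 13420 CPM in siCTCF 1 and siCTCF 2. The log2 fold change was -0.06 (SE 0.07). LMNB1, the lamin lost in senescence, was between 4.03 and 4.25 CPM throughout (log2 fold change 0.00, SE 0.25, interval -0.49 to 0.48). MKI67 and IL6 were below 1 CPM on average and were not tested.

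The secretory list (37 of 50 tested, none called) had a median of -0.06, with -0.01 in pair 1 and -0.13 in pair 2. Its members with the highest CPM were IGFBP5, an IGF-binding protein, and the matrix protease MMP3. IGFBP5 was at 2738 and 2641 CPM in ICM 3 and siCTCF 1 and at 715.1 and 652 CPM in ICM 4 and siCTCF 2, so the pairs stood apart while the libraries of a pair did not. MMP3 had a log2 fold change of -0.10 (SE 0.08).

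Of 34 tested proliferation genes none was called, with a median of 0.08. Among HMG proteins and lamina genes (24 tested, none called, median 0.05), HMGB1 was at 104.5 and 97.56 CPM in the controls and 121.7 and 113.1 CPM in siCTCF 1 and siCTCF 2. Both siCTCF libraries lay above both controls, but the log2 fold change of 0.23 (SE 0.11, adjusted p 0.925) was not called. Over all tested genes 14.7% had groups that did not overlap. HMGB2 was at 0.25 (SE 0.17).

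Splicing and nuclear speckle genes gave no call either. With 0.0236% of all tested genes called higher and 0.00788% lower, no call in lists of this size says little. Of 36 tested speckle and SR protein genes the median was 0.04, of 38 core spliceosome genes 0.05 and of 28 hnRNP genes 0.04. SRRM2, a scaffold of nuclear speckles, was at 658.4 and 656.6 CPM in ICM 3 and siCTCF 1 and at 846.2 and 664.4 CPM in ICM 4 and siCTCF 2. ICM 4 was the library apart, and the log2 fold change was -0.17 (SE 0.09). SON, the other scaffold, was at 0.01 (SE 0.09), with ratios of 0.18 and -0.17. SF3B1, of the U2 snRNP, went from 342.8 to 470.1 CPM in pair 1 and was at 614.4 and 613.6 CPM in pair 2 (0.24, SE 0.09, adjusted p 0.711).

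Heat shock chaperones held the only other called list member, HSP90AA1, where 0.0236% of all tested genes were called higher and 0.00788% lower. The 23 tested had a median of 0.07 (0.16 in pair 1, 0.02 in pair 2). DNAJA1 and DNAJB4, HSP40 co-chaperones, were at 0.27 (SE 0.09) and 0.31 (SE 0.11), and HSPA8, the constitutive HSP70, was at 0.13 (SE 0.08); none of these passed. Of 43 genes of the unfolded protein and ATF4 response none was called, with a median of 0.03. HSP90B1, the HSP90 of the endoplasmic reticulum, was at 3528 and 3492 CPM in the controls and 4658 and 3711 CPM in siCTCF 1 and siCTCF 2 (0.25, SE 0.08, adjusted p 0.38).

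The remaining lists had no called member, which says little where 0.0236% of all tested genes were called higher and 0.00788% lower. Pair 2 had lower medians for extracellular matrix genes (-0.15, against 0.03 in pair 1), contractile and TGF-beta genes (-0.15, against -0.04) and mitochondrially encoded mRNAs (-0.21, against 0.12), and a higher one for cytosolic ribosomal proteins (0.12, against -0.02). The median gene was at 0.00 in both pairs. COL1A1, the main fibrillar collagen of fibroblasts, went from 872.7 to 725 CPM in pair 2 and from 1831 to 1820 CPM in pair 1. Matrix transcripts had a median length of 5102 bases and ribosomal protein transcripts of 1864 bases, in a pair whose ratios were lower for longer transcripts. The mitochondrially encoded mRNAs had no length or GC value. The part of transcript length in the medians of pair 2 was not tested. With GC and length offsets the medians over both pairs went from -0.05 to 0.00 for matrix genes, from -0.08 to -0.07 for contractile genes and from 0.04 to 0.03 for ribosomal proteins.

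Medians over both pairs were 0.01 for interferon-stimulated genes (24 tested) and for cholesterol synthesis (30), -0.03 for lysosomal genes (36) and -0.06 for AP-1 and immediate-early genes (25). Without the block, list medians followed the library left out: that of the matrix genes ran from -0.64 without siCTCF 1 to 0.53 without ICM 3.

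**Figure D5:**
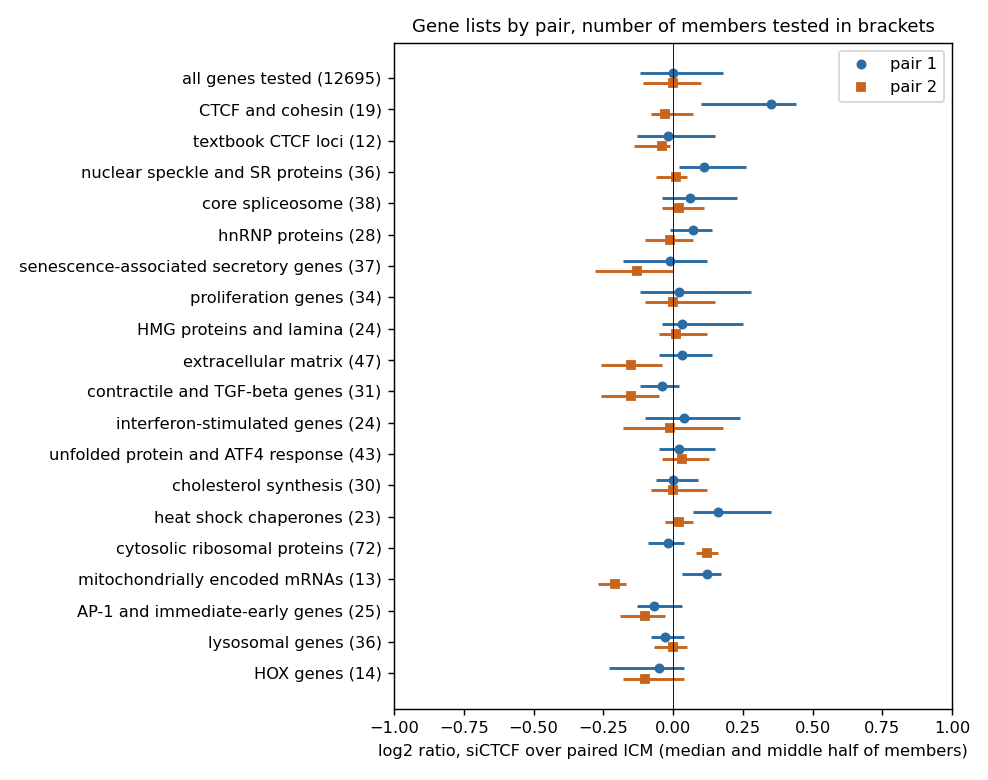
Log2 ratio of siCTCF to its paired ICM control for the members of each gene list (x axis; points are medians, lines span the 25th to the 75th percentile of members), circles for pair 1 and squares for pair 2. The CTCF and cohesin list has a median of 0.35 in pair 1 and -0.03 in pair 2, and the mitochondrially encoded mRNAs 0.12 and -0.21.

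The size of the response was set beside that of HMGB2 knockdown in untreated cells, which shares no library with it. In a joint edgeR fit of the 8 libraries, with pairs as blocks, the CTCF and HMGB2 effects differed in 1281 of 13015 genes (9.84%), 621 higher and 660 lower in the CTCF contrast. In that fit 2545 genes were called for siHMGB2 (19.6%) and none for siCTCF, where CTCF had an adjusted p of 0.064. ACTA2, smooth muscle actin, had a log2 fold change of 0.07 in the CTCF contrast and 1.87 in the HMGB2 contrast (difference -1.80, SE 0.18, adjusted p 8.44e-08).

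FGF2, a fibroblast growth factor, had 0.09 and -2.36 (difference 2.45, SE 0.16), and HMGB2 itself 0.26 and -3.01. These examples, except HMGB2, were chosen after their values were seen. The contrasts differ in ICM treatment as well as in the gene targeted, and the labels of the 4 libraries here differ in form from the other 10. Knockdown depth differed too, with HMGB2 at -3.01 and CTCF at -1.17 in the main fit. The siHMGB2 and WT libraries held 33561766 to 41168932 gene counts, against 22336161 to 26779027 here. Target, treatment, knockdown depth, gene counts and set therefore cannot be told apart. Without the blocks no gene passed the test of the difference.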

How the data were processed

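Trizol-extracted, DNase-treated RNA was made into TruSeq libraries and read paired-end, per the labels' protocols. Each library has a deposited file of raw counts by gene symbol; STAR 2.7.3a, HTSeq 0.12.4, DESeq2 1.36.0 and hg38 are named in the submitters' processing notes. The strand setting and annotation are not given in the sources used here. Of 54628 symbols and 5 lines for reads given to no gene, the 5 lines were left out.

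The counts, TMM-scaled, were tested in edgeR 4.0.16 (R 4.3.3; glmQLFit, glmQLFTest) on the 4 libraries with the pair as a block, for genes averaging 1 CPM or more. Adjusted p is Benjamini-Hochberg over all genes tested. SE is the absolute log2 fold change over the square root of F, and intervals are normal. CPM uses total gene counts. Ratios within a pair use TMM-scaled CPM with 0.5 CPM added. The pairing comes from the order of the numbers; deviations of paired libraries from their group means had a correlation of 0.863 over 8771 genes.

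Named genes were CTCF, called genes (up to 12 each way), up to 4 called members or else the 2 with the highest CPM of each list, the 5 highest and 5 lowest of each pair, and a panel. Some genes and 1 list are not reported here. Members, rules and the 21 lists (780 genes) were chosen with earlier results of these data known. Symbols were matched to the RefSeq gene table (51616 of 54628). DESeq2 1.42.0 was an alternative. The fit was run on simulated data in which every gene had the same spread, so that run does not test the shared spread. Figures were drawn with matplotlib 3.10.9.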

Additional observations from a re-analysis of the deposited data

How the results depend on the processing

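The calls changed with the pairing and with the fit: with no replicate block 0 genes were called, against 4 with it, and 0 of the listed genes against 2. The counts were likewise 0 and 0 with DESeq2, with all 14 libraries and no replicate block, and with all 14 libraries and the replicate block. Leaving out each library in turn, without the block, gave 0 called and 0 listed genes each time. Total count scaling left 2 called genes and 1 listed, and a minimum of 10 CPM or of 2-fold left 1 and 1. Relative log expression scaling and the bias-adjusted fit (added after the data were seen) called the same 4 genes, no filter and an adjusted p under 0.01 called 3 of them, and the GC and length offsets, also added later, called 9, of which 2 were shared. CTCF kept its sign under all of these. With 1 library per arm no called count could be had for a pair alone.

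At a mean of at least 1 CPM, 15 genes were 2-fold higher and 8 lower in pair 1, and 4 higher and 12 lower in pair 2, against none, none, none and 1 at 10 CPM. At 1.5-fold the pair counts were 104 higher and 3 lower in pair 1 and 8 lower in pair 2. The difference from siHMGB2 was called for 1281 genes with pairs as blocks and 0 without. The promoter share of 7.46% became 31.6% with AGNNGGCNC and 79.5% with CCCTC.

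No single-gene value reversed among called genes. With 2 pairs, 1 residual degree of freedom and a median SE of 0.13 (log2) under the shared spread, small changes in single genes were not detectable. The cause of these dependencies was not tested.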
